A study of Sus scrofa with 6 samples.

Results

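The miR-23, miR-27 and miR-24 microRNAs (miRNAs) were followed in the liver of newborn piglets of a pair of breeds, Large White (LW) and Erhualian (EHL). The rows of the array named ssc-miR-23a, ssc-miR-24, ssc-miR-27a and ssc-miR-27b were taken by name, 4 of the 236 rows that carry the name of a pig miRNA. All 4 had a value on each of the 6 arrays, 3 for LW and 3 for EHL. EHL is a Chinese indigenous breed of high adiposity, and LW is a Western breed, which served as the control. Every piglet was a purebred male killed at birth, without any treatment, and each array carried liver RNA pooled from 2 littermates, so that 6 piglets of 3 litters stood behind each breed. The variation between littermates was therefore not measured. The piglets came from neighbouring breeding farms, and whether breed and farm coincide is not given in the sources used here.

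A miRNA is cut from a hairpin precursor and guides the silencing complex to messenger RNAs that pair with its seed, bases 2 to 8 from the 5′ end. The miR-23, miR-27 and miR-24 genes lie side by side in vertebrate genomes, as a pair of paralogous clusters, and each cluster is transcribed as a common primary transcript from which the separate hairpins are released. In the pig gene table of RefSeq (assembly Sscrofa11.1), MIR23A, MIR27A and MIR24-1 were neighbours with 0 other genes starting between them, and so were MIR24-2, MIR27B and MIR23B. Cluster mates differ in their mature sequences and thus in their seeds. miR-27a and miR-27b are known to repress adipocyte differentiation and genes of fatty acid and triglyceride metabolism, among them PPARG, the master regulator of fat cell formation. miR-23a has been tied to glucose production and glutamine use, and miR-24 to lipid storage in hepatocytes and to the cell cycle.

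The seed of the miR-27 family is shown here through the oligonucleotide that the study used as forward primer for miR-27a in RT-qPCR, a DNA copy of the mature miRNA. Capitals mark the seed, bases 2 to 8 of 21.
miR-27a forward primer: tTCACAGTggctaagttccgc
The paralogs miR-27a and miR-27b share this seed and differ in the 3′ part of the mature sequence, so that they address the same seed matches. The probe of either paralog may therefore also bind the other, and the extent of this on the array was not tested. Mature miR-24 is the same molecule from both clusters. The signal of miR-24 thus sums both loci, while miR-23a and miR-27a report on the MIR23A cluster and miR-27b on the MIR27B cluster. Only 1 signal per row was available, so fewer cells that hold a miRNA and less miRNA per cell cannot be told apart.

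The deposited values were background-subtracted, LOWESS-normalized intensities on a linear scale, between 10 and 28071 for the named rows. The number of listed named rows varied between 101 and 134 on the 6 arrays, and the median log2 signal of the 96 named rows listed on all arrays varied between 7.54 and 7.77. EHL array 1 received the lowest weight of the 6 arrays when limma weighted them by their scatter (0.602). miR-122, the defining miRNA of hepatocytes, stood between 18287 and 28071 on all 6 arrays, and miR-194, another hepatocyte miRNA, was blank on all of them. Precision is limited by there being 3 arrays in a breed.

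The clearest differences between breeds lay in miR-27a and miR-24, in opposite directions. The normalized signal of miR-27a was 131, 148 and 143 on LW arrays 1, 2 and 3 and 98, 76 and 63 on EHL arrays 1, 2 and 3. The highest EHL value stayed below the lowest LW value, and the EHL arrays were spread more widely. Mean signals were 141 ± 8.74 for LW against 79.0 ± 17.7 for EHL (SD, n = 3). On the log2 scale, the ratio of EHL to LW was -0.85 with a 95% interval from -1.44 to -0.26, or 0.553 of the LW level. The exact permutation test of 3 arrays against 3 gave p = 0.1, the smallest p it allows.

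The signal of miR-24 was 395, 357 and 274 on LW arrays 1, 2 and 3 and 426, 477 and 814 on EHL arrays 1, 2 and 3. Every EHL array was above every LW array, by a small margin between LW array 1 and EHL array 1 and by a wide one for EHL array 3. Mean signals were 342 ± 61.9 for LW against 572 ± 211 for EHL (SD, n = 3). The log2 ratio was 0.70 with a 95% interval from -0.012 to 1.41, or a ratio of 1.62 (exact permutation p = 0.1). EHL array 3 carried much of this value, and the log2 ratio was 0.42 without it.

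The other 2 members did not separate the breeds. The signal of miR-27b was 1054, 896 and 821 on LW arrays 1, 2 and 3 and 734, 688 and 1035 on EHL arrays 1, 2 and 3, so that EHL array 3 lay among the LW arrays. Its log2 ratio was -0.19, with a 95% interval from -0.79 to 0.41 (exact permutation p = 0.4). The signal of miR-23a was 581, 837 and 732 in LW and 739, 745 and 686 in EHL, in the same order of arrays. All 3 EHL values of miR-23a fell inside the LW range. Its log2 ratio was 0.028, with a 95% interval from -0.54 to 0.60 (exact permutation p = 0.8). The sign of this ratio turned with the scaling of the arrays, to -0.014 with arrays centred on their medians.

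**Figure D1:**
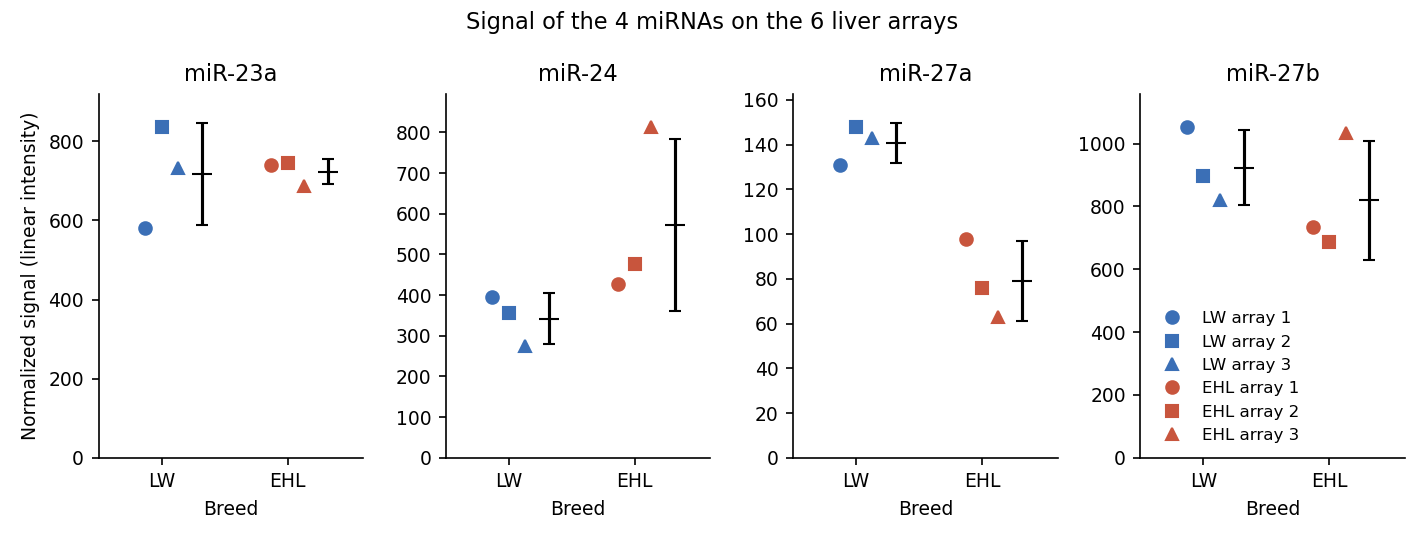
Normalized signal (linear intensity, axes from 0) of miR-23a, miR-24, miR-27a and miR-27b on each LW and EHL array, with points for single arrays and a bar beside them for the mean and SD of 3 arrays. The EHL points of miR-27a (63 to 98) lie below all LW points (131 to 148), those of miR-24 (426 to 814) lie above them (274 to 395), and the breeds overlap for miR-23a and miR-27b.

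These ratios were taken from a limma fit over the 109 named rows listed on 2 or 3 arrays in both breeds, with p-values adjusted over all 109 and an adjusted p under 0.15 as the threshold, the FDR that the study used for this array. Of the 4 members, 0 passed, against 0.917% of all rows tested, a single row. The adjusted p by limma was 0.244 for miR-27a (standard error 0.26), 0.415 for miR-24 (0.32), 0.833 for miR-27b (0.27) and 0.974 for miR-23a (0.25). At an unadjusted p under 0.05 limma gave 1 member, miR-27a, against 11.9% of all rows. The study used SAM, whose settings beyond the FDR are not given in the sources used here. SAM was therefore recomputed with a fixed exchangeability constant, and its calls need not be those of the study's run. In this form it called 0 members and 7.34% of all rows, each of them higher in EHL. It thus called 0 rows in the direction of miR-27a, whereas the study's own run listed miR-27a as lower in EHL at its threshold. In the paper, sequencing of miR-27a, on RNA pooled within each breed, leaned the other way. Its RT-qPCR leaned the same way as the array but was not significant. By limma p, miR-27a ranked 3 and miR-24 ranked 14 of 109.

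The breeds did not overlap for 2 of the 4 members, against 18.8% of the 96 rows listed on all arrays. In the direction of miR-27a, lower in EHL, 7.29% of the 96 rows did not overlap, and in the direction of miR-24, higher in EHL, 11.5% did not. The median log2 ratio of all rows tested was 0.025, so that the values of the members hardly change when read relative to it. Among the 109 rows, the log2 ratio of miR-27a ranked 6 from the lowest and that of miR-24 ranked 11 from the highest. miR-23a, at rank 56 from the lowest, stood in the middle. The calls on miR-27a and miR-24 depended on EHL array 1 and on the scaling and weighting of the arrays. Without EHL array 1, limma gave an adjusted p of 0.0380 for miR-27a (log2 ratio -1.02) and 0.0958 for miR-24 (log2 ratio 0.88), so that both passed, as did 24.7% of all rows tested there. With all 6 arrays, miR-27a also passed by limma after quantile normalization (adjusted p = 0.0261, 2.08% of rows called), with array weights (adjusted p = 0.110, 6.42% called) and with REML array weights (adjusted p = 0.0544, 20.2% called). miR-24 passed with REML array weights alone of these 3 (limma, adjusted p = 0.126).

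**Figure D2:**
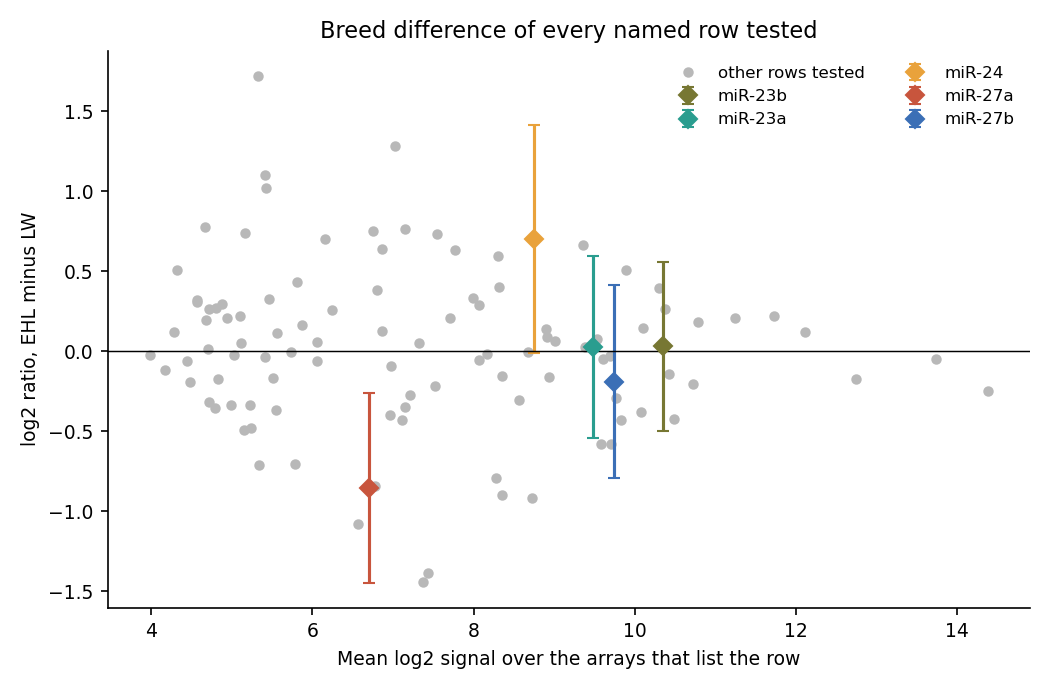
log2 ratio of EHL to LW against the mean log2 signal for the 109 named rows tested by limma. Diamonds with 95% intervals mark the 4 members and miR-23b, and grey points mark the other rows. The interval of miR-27a (-1.44 to -0.26) lies below 0, that of miR-24 just reaches 0 from above, and those of miR-23a, miR-27b and miR-23b span 0.

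Whether cluster mates moved together was read from the difference of their log2 signals within each array, from which any shift of a whole array drops out. The size of such a difference on 1 array is no ratio of abundance, since probes hybridize with different strength, and only its change between breeds was compared. miR-24 minus miR-27a was 1.59, 1.27 and 0.94 on LW arrays 1, 2 and 3 and 2.12, 2.65 and 3.69 on EHL arrays 1, 2 and 3. All EHL arrays were above all LW arrays. This separation follows from that of miR-24 and of miR-27a alone and is no further result. The ratio of miR-24 to miR-27a was thus higher in EHL by 1.55 on the log2 scale (standard error 0.50, 95% interval 0.17 to 2.94), or 2.94-fold. This was the widest change among the 6 pairs of members, and it stayed between 1.12 and 1.90 when single arrays were left out.

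miR-23a minus miR-27a, both from the MIR23A cluster, was 2.15, 2.50 and 2.36 on LW arrays 1, 2 and 3 and 2.91, 3.29 and 3.44 on EHL arrays 1, 2 and 3. Again the breeds did not overlap, with a change of 0.88 (standard error 0.19, 95% interval 0.36 to 1.40), or 1.84-fold. With miR-23a at a log2 ratio of 0.028, the change of this pair largely restates that of miR-27a. The standard errors of pairs lack the moderation of limma, and that of miR-27a alone was also 0.19 by the equal-variance test. The change of miR-23a minus miR-27a was narrower than that of miR-24 minus miR-27a, but the arrays of a breed lay closer together. miR-24 minus miR-23a overlapped between breeds, with a change of 0.67 (95% interval -0.49 to 1.83). The change moved to 0.35 without EHL array 3.

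For miR-27b of the MIR27B cluster, the mate miR-24 sums both clusters, so that their difference does not read the MIR27B cluster alone. miR-24 minus miR-27b was -1.42, -1.33 and -1.58 on LW arrays 1, 2 and 3 and -0.78, -0.53 and -0.35 on EHL arrays 1, 2 and 3. The breeds did not overlap, and the change of 0.89 had the smallest standard error of the 6 pairs (0.15, 95% interval 0.48 to 1.30). In the array with the highest miR-24, EHL array 3, miR-27b was high too, which the difference takes out. For the pair miR-23a and miR-27b, from separate clusters, the change was 0.22 (95% interval -0.69 to 1.13), and it was -0.024 without LW array 1.

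The paralogs miR-27a and miR-27b both had a log2 ratio below 0, and the interval of their difference held both an equal and an unequal change. miR-27a minus miR-27b was -3.01, -2.60 and -2.52 on LW arrays 1, 2 and 3 and -2.90, -3.18 and -4.04 on EHL arrays 1, 2 and 3. EHL array 1 lay within the LW range, and EHL array 3 lay far below. The change between breeds was -0.66 (standard error 0.37, 95% interval -1.70 to 0.37). It was -0.33 without EHL array 3, so that 1 array carried much of it. Over the 6 pairs, the exact permutation p was 0.1 for the 3 pairs without overlap and between 0.2 and 0.5 for the others. Adjusted over the 6 pairs by the Benjamini-Hochberg method, the exact permutation p was 0.2 for those 3 pairs and 0.3 for the paralogs. Since 0.1 is the smallest p of 3 arrays against 3, no pair could fall under 0.05. These p-values therefore cannot decide whether a pair changed. For miR-24 minus miR-27a, the lack of overlap and its exact permutation p were fixed by the separation of both rows.

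**Figure D3:**
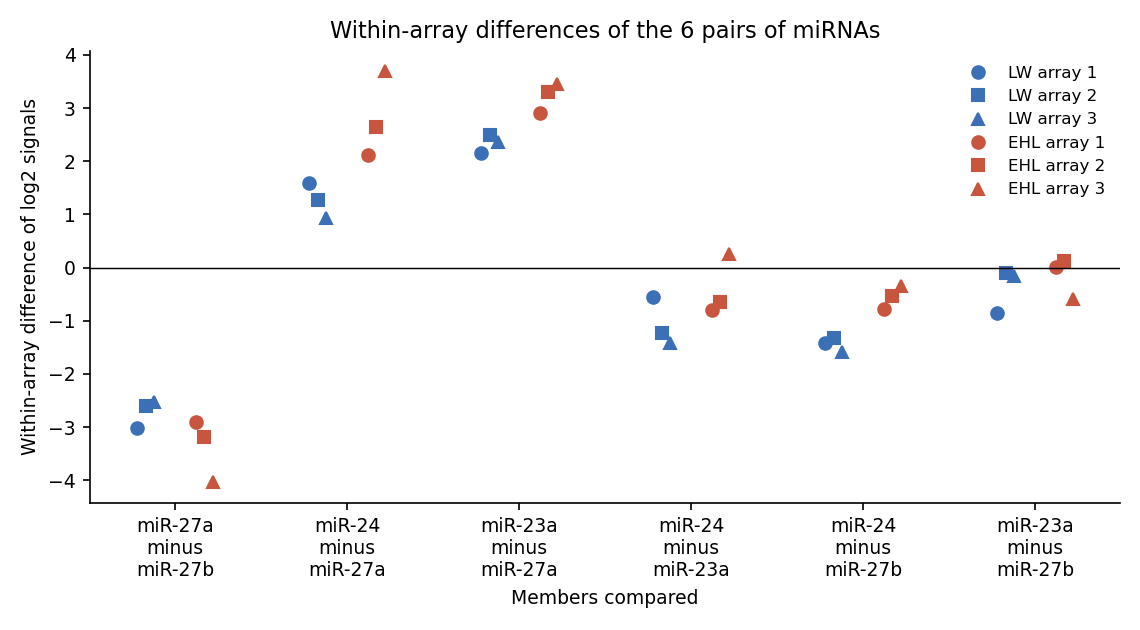
Within-array difference of log2 signals for the 6 pairs of members, with 1 point per array in LW and EHL. The EHL points lie above the LW points for miR-24 minus miR-27a (2.12 to 3.69 against 0.94 to 1.59), miR-23a minus miR-27a and miR-24 minus miR-27b, and the breeds overlap for the other 3 pairs, the paralogs miR-27a and miR-27b included.

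How members varied together between litters of a breed was read next, and 1 scaling of the arrays turned 4 of the 6 signs. Deviations from the breed mean were correlated over the 6 arrays, with exact permutation of the arrays within each breed (36 relabellings, two-sided). For miR-24 and miR-27b, Pearson's r was 0.942 (exact permutation p = 0.0556) and Spearman's rho was 0.771 (p = 0.194). Without the points of EHL arrays 1 and 3, whose deviations of miR-24 from the breed mean lay farthest from the median deviation, r was 0.911. The breed means were still taken over all arrays, so this r still depends on the arrays left out. For the paralogs miR-27a and miR-27b, r was -0.715 (exact permutation p = 0.333) and rho was -0.486 (p = 0.583). Here r was -0.50 without the points of EHL arrays 1 and 3, under the same limit. The other 4 pairs had r between -0.826 and 0.440. None of the 6 passed after Benjamini-Hochberg adjustment (lowest adjusted p = 0.25, exact permutation). With arrays centred on the median of all their listed named rows, all 6 correlations were above 0 (0.413 to 0.970), and 4 of them, that of the paralogs included, thereby changed sign. This scaling, chosen after seeing the data, moves every row of an array by the same amount, and that median varied between 6.30 and 7.41. Such a shared shift can raise the correlation of any rows, so these values do not show that members vary together. Median centring on the rows listed on all arrays and quantile normalization left the paralogs at -0.49 and -0.58. All arrays passed through the same LOWESS normalization, which the points share.

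**Figure D4:**
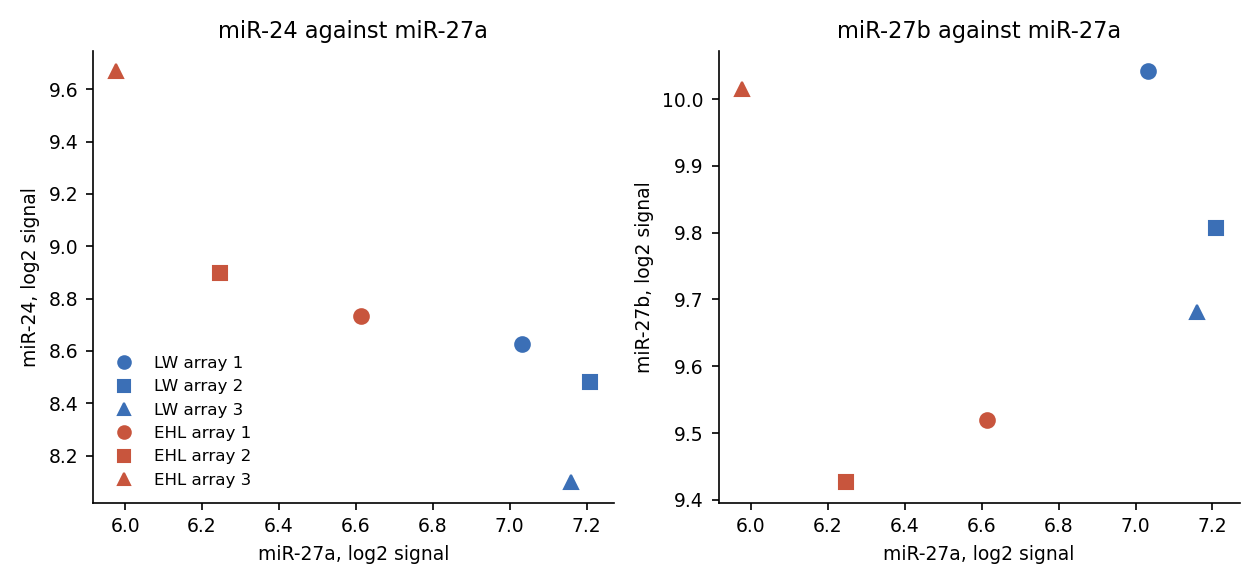
log2 signal of miR-24 (left) and of miR-27b (right) against that of miR-27a, with 1 point per array. miR-24 is highest (9.67) where miR-27a is lowest (5.98, EHL array 3), while miR-27b is high both there (10.02) and on LW array 1 (10.04).

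The array held 3 further rows of the clusters. miR-23b, the paralog of miR-23a in the MIR27B cluster, had signals of 1222, 1341 and 1319 on LW arrays 1, 2 and 3 and 1223, 1313 and 1433 on EHL arrays 1, 2 and 3. Its log2 ratio was 0.030 (standard error 0.23, limma, adjusted p = 0.974), close to that of miR-23a, and its log2 signal had an SD between arrays of 0.072 for LW and of 0.11 for EHL. The 95% interval ran from -0.50 to 0.56, and the sign turned to -0.012 with median centring. Whether the probes of miR-23a and miR-23b also bind the other paralog was not tested. The passenger strand miR-27b* was listed at 15 on LW array 1 and at 13 on EHL array 1 and was blank elsewhere, and miR-24* was blank on all 6 arrays. A blank cell gives no level.

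The rows that most resembled each member were ranked by Pearson's r of log2 signal over the 6 arrays, among the other 95 rows listed on all arrays, as a description in which breed, array and normalization are shared. miR-24 ran closest to miR-532-5p (r = 0.977), miR-500 (0.967) and miR-143-3p (0.961), each with a log2 ratio above 0 (0.60 to 1.28). miR-27a ran closest to miR-204 (0.919), miR-15b (0.885) and miR-885-5p (0.880), with log2 ratios between -1.44 and -0.43. miR-27b was most like miR-328 (0.894), miR-181a (0.893) and miR-30c (0.805), and miR-23a most like let-7g (0.896), the endothelial miR-126 (0.821) and let-7i (0.793). No member had a cluster mate or its paralog among its 3 closest rows. For miR-27a, its paralog miR-27b stood at rank 39 of 95 (r = 0.106), miR-23a at rank 42 (0.098) and miR-24 at rank 83 (-0.897). The closest relative of miR-23a by this measure was miR-23b, at rank 21 (0.341).

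Beside the members, 26 miRNA names linked with liver lipid and sugar metabolism were looked up, of which 11 rows could be tested. The list was drawn up with earlier results of these data known, so its counts are no independent support. The study had reported miR-378, miR-185 and miR-130b as higher in EHL on these arrays. By limma 0 of the 11 passed, 7 had a log2 ratio above 0 and 4 below, and the median was 0.21 against 0.025 for all rows tested. The breeds did not overlap for 4 of the 10 listed on all arrays, each higher in EHL, against 11.5% of all 96 rows listed on all arrays. These were miR-378 (log2 ratio 1.02), which is encoded within the gene of PGC-1β, miR-185 (0.76), known to act on cholesterol uptake, miR-130b (0.70), known to repress PPARG, and miR-143-3p (0.60), which promotes adipocyte differentiation. None of the 10 was lower in EHL without overlap, the direction of miR-27a, against 7.29% of the 96 rows, a share too small for 10 rows to differ from.

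Marker miRNAs of cell types did not separate the breeds as a list. The summed signal of the 3 hepatocyte miRNAs listed was 24963 to 33001 in LW and 24137 to 28497 in EHL. The red cell miRNAs miR-451 and miR-486 together gave 124 to 249 in LW and 78 to 410 in EHL, with the highest value on EHL array 1. The endothelial miR-126 was listed at 2209 to 4098 in LW and 3110 to 4524 in EHL, with miR-126* blank. Over the 7 mesenchymal and smooth muscle rows tested, the summed signal was 5964 to 6999 in LW and 5239 to 7980 in EHL. In this list miR-143-3p was higher and miR-199b* lower in EHL without overlap, 2 of 7 rows against 18.8% of the 96 rows, the former with r = 0.961 to miR-24. The part of these cell types in the values of miR-24 and miR-27a was not tested.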

How the data were processed

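Small RNA of 6 pooled liver samples was tailed, tagged, hybridized to pig miRNA arrays with probes from miRBase release 16 and stained with Cy5. The authors subtracted the background, normalized by LOWESS and deposited 1 linear intensity per row and array, in whole numbers, with some cells blank. What made a cell blank is not given in the sources used here, and the background correction could not be varied. Intensities were converted to log2, and the breeds were compared in R 4.3.3 with limma 3.58.1 (lmFit, eBayes, breed as the only term), with Benjamini-Hochberg adjustment. Rows with an LRS label (100) entered only as an alternative. SAM was recomputed over 20 relabellings, with the 5% percentile of the standard errors as its constant. Both were tested on simulated data. Within-array differences and correlations used exact permutation, with scipy 1.17.1, pandas 2.3.3 and numpy 2.4.6 under Python 3.11.15. Standard errors and intervals of the within-array differences came from a linear model with breed as its term, without the moderation of limma.

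The members and lists were chosen with earlier results of these data known. Named were the 4 members, other rows of their clusters, the 3 rows most like each member by Pearson's r, and list rows that were called or did not overlap between breeds, with the marker rows. Lists were matched by name, with or without an arm or star. Alternatives covered the test, the threshold, scaling, filters, an offset, array weights, the LRS rows, linear means, a replicate block and each array left out. No slide or scan batch is given in the sources used here. RefSeq served only for names and neighbours. Mature sequences of the other members, sequencing and RT-qPCR values were not analysed here.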

Additional observations from a re-analysis of the deposited data

How the results depend on the processing

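By limma 1 of 109 rows was called, miR-184 (log2 ratio 1.72, adjusted p = 0.0253), named here after its values were seen. SAM called 8, also with the FDR counted in each direction apart. The equal-variance test and centring on the median of all listed rows gave 0 (9 each at an unadjusted p under 0.05), quantile normalization and adding the LRS rows 2, array weights 7 and REML array weights 22. With each array left out the count ran from 0 (without LW array 3 or EHL array 2) to 24 (without EHL array 1). The replicate block gave 0, with 8 at an unadjusted p under 0.05. Same-numbered arrays did not deviate together (correlations -0.50, -0.01 and -0.66), which leaves the arrays unpaired. REML weights, centring on all listed rows and the FDR by direction were chosen after seeing the data.

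miR-27a kept its direction throughout and passed the threshold with quantile normalization (log2 ratio -1.03, adjusted p = 0.0261, limma), array weights (-0.89, adjusted p = 0.110) and REML weights (-0.92, adjusted p = 0.0544). Its log2 ratio was -0.57 with an offset of 50. The adjusted p ran from 0.0261 to 0.871 over all alternatives. miR-24 passed with REML weights (0.77, adjusted p = 0.126, limma), within a range of 0.0958 to 0.976. With each array left out, the log2 ratio ran from -1.02 to -0.70 for miR-27a, 0.42 to 0.88 for miR-24, -0.37 to -0.076 for miR-27b and -0.11 to 0.15 for miR-23a. miR-23a was also below 0 with median centring (-0.014), array weights (-0.0146) and REML weights (-0.031). Centring on all listed rows, of which arrays list 101 to 134, shifted every log2 ratio of the rows on all arrays by -0.28, which took miR-23a to -0.26 and miR-23b to -0.25, beside a median of -0.25. miR-23b was below 0 with median centring (-0.012) and without LW array 1 (-0.0106) or EHL array 3, and ran from -0.029 to 0.085 with each array left out.

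The change of miR-24 minus miR-27a ran from 1.12 to 1.90 and that of miR-27a minus miR-27b from -0.90 to -0.33 with each array left out, and that of miR-23a minus miR-27b from -0.024 (without LW array 1) to 0.44. Centring on all listed rows turned the correlation of miR-27a and miR-27b from -0.715 to 0.573. It took that of miR-24 and miR-27a to 0.413, of miR-24 and miR-23a to 0.604 and of miR-23a and miR-27b to 0.671. This centring shifts all rows of an array by the median of its listed rows, which varied between 6.30 (LW array 2) and 7.41 (EHL array 2). Median centring on the rows listed on all arrays left these correlations negative. With each array left out, the correlation of miR-27a and miR-27b ran from -0.943 to -0.126. Where no construction is named, the cause was not tested.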
